A study of Arabidopsis thaliana with 24 samples.

Results

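The effect of the iaa5-1 iaa6-1 iaa19-1 genotype on transcript levels was measured over both treatments of the study. The comparison set 6 arrays of the triple mutant against 6 arrays of the wild type Col, 12 of the 24 arrays in the series, with 3 arrays a side in each treatment and treatment as a term. The arrays were Affymetrix ATH1 arrays, on which each transcript is read by a probe set, a group of short probes. Seedlings of ecotype Columbia were kept 7 days in shaken liquid Murashige and Skoog medium with 1.5% sucrose, under 16 h of light and 8 h of dark, and were then exposed for 2 h at 24 °C to ethanol or to the natural auxin IAA (indole-3-acetic acid) at 5 µM. The 4 groups compared are Col with ethanol (Col control), Col with IAA, the triple mutant with ethanol and the triple mutant with IAA. The remaining 12 arrays hold 6 of iaa17-6 and 6 of axr3-1 under the same treatments. They share in the estimate of the spread between arrays, and iaa17-6 was also compared with the triple mutant.

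IAA5, IAA6 and IAA19 encode Aux/IAA proteins, short-lived nuclear repressors that bind auxin response factors and keep auxin-responsive genes off. Auxin joins an Aux/IAA protein to its F-box receptor, the repressor is degraded, and the genes it held are transcribed. Many Aux/IAA genes are themselves induced by auxin, and the family has many members with overlapping expression. IAA17, altered in the other mutants of the series, belongs to the same family.

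The labels describe the triple mutant only by its alleles, and leave unstated whether the 3 replicates of a group were grown apart. A p-value here rests on the spread between these arrays, which may be technical. The titles of the Col arrays carry an "I" that the titles of the mutant arrays lack, and the labels do not explain it. The annotation used here names 0 probe sets for IAA5, IAA6, IAA17 and IAA19, so the labels were not checked here against the mutated genes. Whole seedlings were extracted, so fewer cells of a type and less RNA per cell cannot be told apart. The annotation names a probe set for 0 of 11 green tissue markers and 0 of 12 seed storage genes. These lists therefore gave no check of the tissue. The root marker PYK10, a beta-glucosidase, differed by 0.20 between the genotypes on the log2 scale (95% interval 0.04 to 0.36, adjusted p = 0.25). Arrays within a group correlated at 0.961 to 0.996 across probe sets. In 6 of the 24 arrays the deviation from the group mean followed 1 shared direction, which held 47.1% of the residual variance, and 3 of the 12 arrays compared are among them: Col control replicate 3, triple mutant control replicate 1 and triple mutant IAA replicate 1. Results are also given without these 6 arrays.

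In the triple mutant, ICL was the gene with the largest change. ICL (AT3G21720) encodes isocitrate lyase of the glyoxylate cycle, which turns acetyl units from stored lipid into precursors of sugar in germinating seedlings. On the deposited log2 scale it read 6.53, 8.48 and 6.78 on the Col control arrays and 11.82, 11.20 and 10.16 on those of the triple mutant. After IAA it read 6.71, 8.93 and 7.39 in Col and 11.37, 10.66 and 10.60 in the triple mutant. All 6 triple mutant arrays lay above all 6 Col arrays, and replicate 2 was the highest Col array in either treatment. Averaged over the treatments, ICL was 11.3-fold higher in the triple mutant (log2 difference 3.50, SE 0.44, 95% interval 2.58 to 4.41). The adjusted p was 0.000433 in limma's moderated test, with Benjamini-Hochberg adjustment over all 14192 probe sets tested. The difference between the IAA responses of the genotypes was -0.60 for ICL, with a 95% interval of -2.42 to 1.23, so the precision does not show whether treatment altered the difference. The call held without each of the 12 arrays in turn, with a highest adjusted p = 0.00262. Without the 6 arrays the log2 difference was 3.06 (limma adjusted p = 0.0296).

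Of the 14192 probe sets, 230 (1.62%) differed between the genotypes over both treatments at an adjusted p under 0.05, 92 higher (0.648%) and 138 lower (0.972%) in the triple mutant. Most differences were small: the median absolute log2 difference of the 230 was 0.50, against 0.09 over all probe sets tested, and 21 of them (0.148% of those tested) reached 2-fold, 13 higher and 8 lower. The annotation names 1 gene for 118 of the 230, several for 2 and none for 110. In 174 of the 230, the triple mutant and Col arrays did not overlap in either treatment, as held for 519 (3.66%) of all probe sets tested, 1.5% higher and 2.16% lower. The number of calls depended on how arrays were treated. With same-numbered control and IAA arrays of a genotype as a random block, limma called 55, and with each such pair averaged first, 12. It called 55 without Col control replicate 1 and 89 without replicate 3, 148 and 71 without Col IAA replicates 1 and 3, 80 without triple mutant control replicate 2, and 92 and 116 without triple mutant IAA replicates 2 and 3. Without the 6 arrays it called 73.

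The loci with the largest rises after ICL have no gene symbol in the annotation used here and are given by locus. AT2G17850 read 6.14, 7.13 and 6.04 in Col control and 9.28, 9.92 and 8.39 in the triple mutant control. After IAA it read 6.77, 8.41 and 6.64 in Col and 9.04, 9.56 and 8.95 in the triple mutant. The groups did not overlap in either treatment, and the difference was 5.06-fold (log2 2.34, SE 0.48, limma adjusted p = 0.019). AT4G33560 read 6.32, 7.12 and 6.69 in Col control and 9.00, 9.05 and 8.67 in the triple mutant control, and with IAA it read 7.34, 8.88 and 7.53 against 9.16, 9.44 and 9.49. The Col values of AT4G33560 were lower in control than with IAA, and Col IAA replicate 2 came closest to the mutant. It was 3.53-fold higher in the triple mutant (log2 1.82, SE 0.31, limma adjusted p = 0.00761).

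AT5G66985 showed a similar pattern, with Col control at 7.28, 7.77 and 6.84 and the triple mutant control at 9.09, 9.20 and 8.83. With IAA it read 7.44, 8.54 and 6.82 in Col and 9.00, 9.19 and 9.12 in the triple mutant, a 3.08-fold mean difference. Replicate 2 was the highest Col array of AT5G66985 in either treatment, as it was for ICL and AT2G17850. AT3G27220 lay at 6.64, 6.89 and 6.73 in Col control against 8.17, 8.40 and 7.99, and with IAA at 6.87, 7.53 and 6.73 against 7.92, 8.16 and 8.10. AT3G03270 lay at 9.98, 10.55 and 9.62 in Col control against 11.36, 11.27 and 11.14, and with IAA at 10.36, 10.94 and 10.26 against 11.31, 11.32 and 11.29. For both loci each triple mutant array lay above each Col array of its treatment, and the triple mutant IAA arrays of AT3G03270 were nearly level. Their mean differences were 2.34-fold and 2-fold.

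The other named rises were smaller or less certain. AT2G47780 stood at the floor of the scale, 5.64, on all 3 Col control arrays, so its mean log2 difference of 1.56 is a lower bound. AT4G24110 (log2 1.54), AT4G27450 (log2 1.28), AT2G25510 (log2 0.97), AT1G23205 (log2 0.93), AT1G04770 (log2 0.87), AT4G34950 (log2 0.86), AT4G22470 (log2 0.80) and AT2G43530 (log2 0.75) completed the 15 largest rises among probe sets that name 1 gene. In all 15 the groups did not overlap in either treatment, but the 15 were chosen as the largest calls, and the same held for 174 of the 230 calls and for 3.66% of all probe sets tested. With the random block 7 of the 15 kept an adjusted p under 0.05, and 5 kept it under the random block and also without each array in turn: ICL, AT4G33560, AT5G66985, AT3G27220 and AT3G03270. With each pair of arrays averaged, 0 of the 15 kept it in limma, ICL having an adjusted p = 0.0538. Without the 6 arrays 1 did, ICL.

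**Figure D1:**
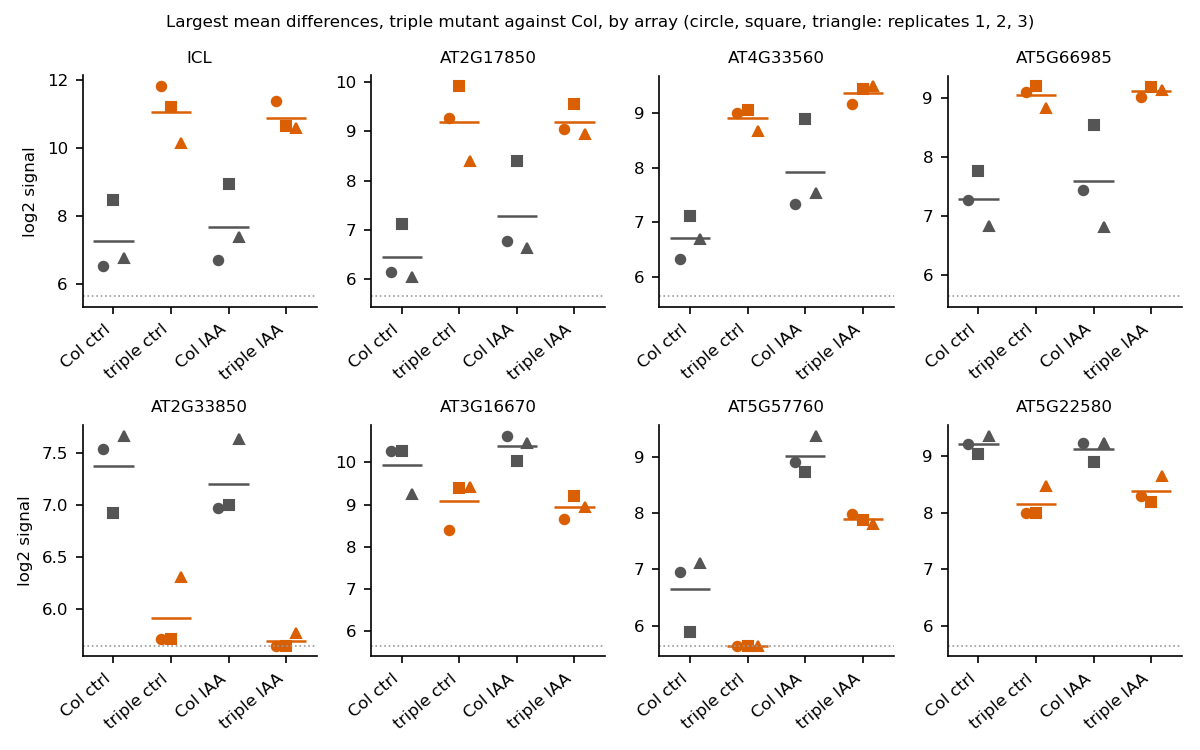
Deposited log2 signal (vertical axis) of the 4 largest rises (upper) and the 4 largest falls (lower) with 1 named gene, on each of the 3 arrays of Col (grey) and the triple mutant (orange) in control and with IAA. Lines are group means, the dotted line is the floor at 5.64, and the symbol gives the replicate number. In ICL the 6 triple mutant arrays lie between 10.16 and 11.82 and the 6 Col arrays between 6.53 and 8.93; AT3G16670 is the panel in which the control groups overlap.

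Among the genes lower in the triple mutant, AT2G33850 showed the largest fall. It read 7.53, 6.92 and 7.66 in Col control and 5.71, 5.71 and 6.31 in the triple mutant control. With IAA it read 6.97, 7.00 and 7.63 in Col, and 5.64, 5.64 and 5.77 in the triple mutant. The triple mutant arrays lay near the floor, and on it for 2 of the 3 IAA arrays, so the 2.8-fold mean difference (log2 -1.49, SE 0.19, limma adjusted p = 0.00056) can understate the change. It was called within each treatment too, at -1.46 in control (limma adjusted p = 0.0335) and -1.52 with IAA (limma adjusted p = 0.0258). These 2 calls were lost with only the groups compared in the fit (limma adjusted p = 0.354 and 0.107). The control call was also lost without Col control replicate 1 or 3 or triple mutant control replicate 1 or 2, and the IAA call without Col IAA replicate 2 or 3 or any triple mutant IAA array.

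AT5G57760 was lower in a pattern that also holds a response to IAA. It read 6.95, 5.89 and 7.12 in Col control and stood at the floor on all 3 triple mutant control arrays. With IAA it read 8.91, 8.74 and 9.38 in Col and 7.99, 7.88 and 7.81 in the triple mutant. Its signal was thus higher with IAA in both genotypes, and lower in the triple mutant in both treatments, with a mean log2 difference of -1.06 or beyond (SE 0.18, limma adjusted p = 0.00612). AT5G22580 read 9.23, 9.05 and 9.37 in Col control against 7.99, 8.00 and 8.48, and 9.24, 8.90 and 9.24 in Col with IAA against 8.30, 8.19 and 8.65. It showed little change with treatment, and was 1.87-fold lower in the triple mutant (log2 -0.90, SE 0.13, limma adjusted p = 0.00134).

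AT5G02160 read 8.94, 8.83 and 9.20 in Col control against 8.08, 8.13 and 8.19, and 8.66, 8.68 and 8.86 in Col with IAA against 8.06, 7.93 and 8.04. AT1G49200 read 6.74, 6.57 and 7.20 in Col control against 5.82, 5.94 and 6.01, and 7.99, 7.99 and 8.23 in Col with IAA against 7.72, 7.31 and 7.29. Neither locus had overlapping groups, and their mean differences were 1.73-fold and 1.71-fold. AT3G16670 had the next largest log2 difference after AT2G33850, -1.15, but its control groups overlapped, with Col control replicate 3 at 9.26 beside triple mutant arrays at 8.40, 9.40 and 9.43. AT2G29290 (log2 -0.87), AT5G62280 (log2 -0.85), AT5G50335 (log2 -0.83 or beyond), AT3G15450 (log2 -0.73), AT5G60680 (log2 -0.71), AT4G29030 (log2 -0.71), AT3G62550 (log2 -0.68), AT2G29310 (log2 -0.65) and P1R1 (log2 -0.64 or beyond) completed the 15 largest falls. Of these 15, 13 had no overlap in either treatment, but the 15 were chosen as the largest calls. No overlap also held for 174 of the 230 calls in either direction, and 2.16% of all probe sets tested were lower without overlap. With the random block 8 of the 15 kept their calls, and 5 kept them without each array in turn as well: AT2G33850, AT5G57760, AT5G22580, AT5G02160 and AT1G49200. With pairs averaged 0 of the 15 did in limma, AT2G33850 having an adjusted p = 0.0538. Without the 6 arrays 3 did, AT2G33850, AT3G16670 and AT1G49200.

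Of the 230 calls, 25 carry a gene symbol, 10 higher and 15 lower, and those not already named were chosen after their values were seen. The higher ones include BETA-VPE, a vacuolar processing enzyme that cleaves seed storage proteins. It read 6.56, 6.51 and 6.16 in Col control against 7.42, 7.17 and 7.07, and 6.27, 6.68 and 6.38 in Col with IAA against 7.25, 7.07 and 7.01, so that the groups did not overlap, and it was 1.67-fold higher (log2 0.74, SE 0.14, limma adjusted p = 0.0152). NAI1, a bHLH transcription factor required for endoplasmic reticulum bodies, was at the floor on 5 of the 6 Col arrays and above it on all 6 triple mutant arrays, with 6.39, 6.20 and 6.03 in control and 5.95, 5.70 and 5.88 with IAA. UF3GT, a glycosyltransferase that modifies anthocyanins, was at the floor in Col on all 6 arrays and read 6.30, 5.98 and 6.04 in the triple mutant control and 6.02, 5.74 and 5.78 with IAA, at least 1.26-fold higher (limma adjusted p = 0.0106). The signals of NAI1 and UF3GT lie close to the floor, where the size of a change is poorly read.

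The remaining higher genes with a symbol were ATC, a relative of the flowering regulator TERMINAL FLOWER 1 (log2 0.66), the glycosyltransferase genes UGT87A2 (log2 0.51) and UGT74F1 (log2 0.33), the peptide receptor gene PSY1R (log2 0.34), the receptor-like kinase gene NCRK (log2 0.30) and the glucosinolate transporter gene GTR2 (log2 0.29). Among the lower ones was EXO (EXORDIUM), a cell wall protein linked to brassinosteroid-dependent growth. It read 8.94, 8.24 and 8.73 in Col control against 7.96, 7.72 and 8.12, and 9.76, 9.67 and 9.78 in Col with IAA against 9.14, 9.27 and 9.25. The groups did not overlap in either treatment, and EXO was 1.52-fold lower (log2 -0.61, SE 0.11, limma adjusted p = 0.0103). The cytochrome P450 gene CYP71B22 was lower by a log2 difference of -0.43 (SE 0.08, limma adjusted p = 0.00917).

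The lower genes with a symbol not named so far differed by less than EXO. Fes1B, PRA1.F1, DRT100, P1R3 and GLY2 are among them and are given without values. ATPMEPCRD, a pectin methylesterase, had a log2 difference of -0.49, the expansin-like gene EXLA2 -0.46, and XTH33, a xyloglucan endotransglucosylase, -0.28 or beyond, its 3 triple mutant control arrays standing at the floor. The groups of EXLA2 did not overlap in either treatment, while those of ATPMEPCRD and XTH33 overlapped in control. The lower genes also include 2 of the chloroplast, the photosystem II assembly factor PSB27 (log2 -0.31) and the thylakoid ascorbate peroxidase TAPX (log2 -0.29). MSRB6, a methionine sulfoxide reductase, had -0.53, and the thionin gene THI2.2 -0.41. PSB27 read 11.18, 11.07 and 11.18 in Col control and 10.87, 10.80 and 10.92 in the triple mutant control, a narrow gap between tight groups. Of the 25, the calls of ICL, NAI1, UF3GT, EXO and CYP71B22 held with the random block and without each array in turn, and ICL and NAI1 also held without the 6 arrays.

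**Figure D2:**
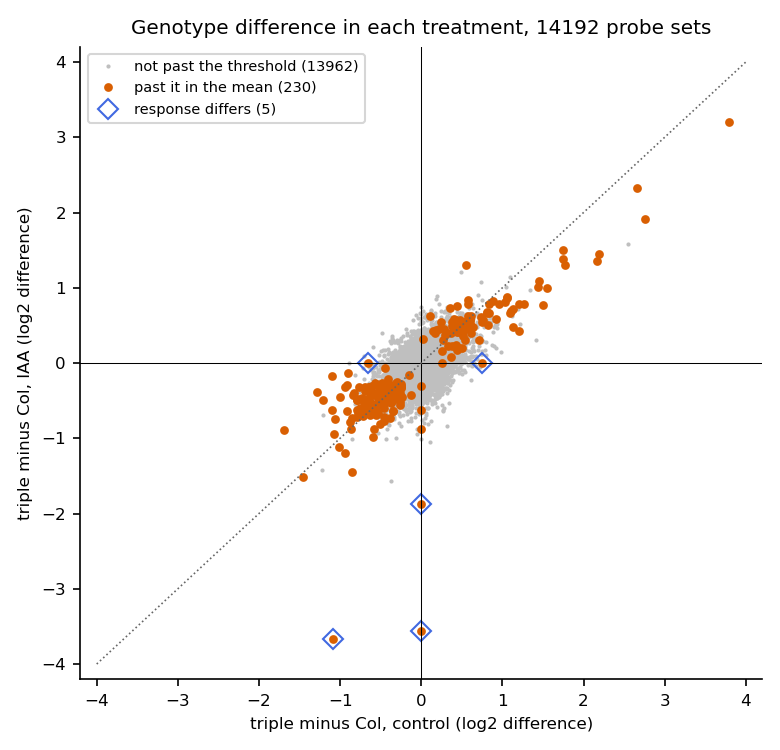
Log2 difference of the triple mutant from Col in control (horizontal axis) and with IAA (vertical axis) for the 14192 probe sets tested. The 230 called in the mean of both treatments are orange, the 5 whose response to IAA differed are ringed by diamonds, and the dotted line marks equal differences; the orange points lie in the upper right and lower left, apart from those at 0 in 1 treatment.

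The control and the IAA comparison share no arrays, but they are not independent: same-numbered control and IAA arrays of the triple mutant deviated together from their group means (correlations across probe sets 0.84, 0.58 and 0.63), as did Col replicates 2 and 3 (0.32 and 0.50). In control alone 25 probe sets differed (0.176%), 12 higher (0.0846%) and 13 lower (0.0916%), and with IAA alone 21 (0.148%), 6 higher (0.0423%) and 15 lower (0.106%). Of the 25 called in control, 21 had the same sign with IAA, 17 of them with an unadjusted p under 0.05, 0 had the opposite sign, and in 4 both genotypes stood at the floor with IAA. Of the 21 called with IAA, 12 had the same sign in control, 7 of them with an unadjusted p under 0.05, 1 had the opposite sign and 8 were at the floor. An unadjusted p under 0.05 was met by 7.2% of all probe sets with IAA and by 7.63% in control, and how far the shared deviation of paired arrays sets these counts was not tested. Called in both treatments were 4 probe sets: those of ICL and AT2G33850, and 250868_at and 258399_at, which the annotation leaves unnamed. The control call of ICL was lost without Col control replicate 1 or 3 or triple mutant control replicate 1 or 2. Its IAA call was lost without Col IAA replicate 1 or 3 or any triple mutant IAA array. Both calls of 250868_at and the control call of 258399_at were also lost without some single arrays. Across the 14192 probe sets the control and IAA differences correlated with Pearson's r = 0.58, a description across genes, which are not independent replicates, and one that the paired arrays enter. With only the arrays of the 2 groups compared in the fit, limma called 0 probe sets in control (813 at an unadjusted p under 0.05) and 5 with IAA, and of the 4 called in both treatments it kept 258399_at with IAA (adjusted p = 0.000145). Restricted to signals that no array compared had at the floor, it called 1 with IAA. The control count rested on few arrays: it was 2 without Col control replicate 1, 85 without replicate 2, 10 without replicate 3, and 15 and 8 without triple mutant control replicates 1 and 2. Leaving out Col IAA replicate 3 gave an IAA count of 11, and leaving out triple mutant IAA replicate 2 or 3 gave 6 or 8.

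Some loci were called within a treatment without being among the largest mean differences. In control, AT1G26270 read 7.40, 7.55 and 7.64 in Col and 8.42, 8.41 and 8.23 in the triple mutant, and AT4G23680 10.41, 10.58 and 10.29 against 11.10, 11.11 and 10.89. Both lay apart by more than the range within a group, and their control differences were 1.77-fold and 1.52-fold. AT1G29670 read 9.80, 9.71 and 9.58 in Col control and 9.07, 9.09 and 8.99 in the triple mutant control, a log2 difference of -0.65 (SE 0.11, limma adjusted p = 0.0136). With IAA, AT5G01740 read 7.80, 7.74 and 7.68 in Col against 7.17, 6.98 and 7.02, and AT1G56220 10.11, 10.13 and 10.05 against 9.45, 9.51 and 9.36. Each array of the triple mutant was again below each of Col, with log2 differences of -0.69 and -0.66. AT1G29670, AT1G56220, AT3G50560 (mean log2 difference -0.46 or beyond) and AT5G01015 (mean log2 difference -0.33 or beyond) are the 4 with 1 named gene among the 12 probe sets that limma called after averaging each pair of arrays. The 2 of these above the floor throughout, AT1G29670 and AT1G56220, had mean log2 differences of -0.48 and -0.60 with a narrow spread within each group.

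The response to IAA itself differed between triple mutant and Col for 5 probe sets (0.0352%), 1 higher (0.00705%) and 4 lower (0.0282%) in the triple mutant, and 205 had an unadjusted p under 0.05. Probe set 261766_at stood at the floor on all control arrays of both genotypes, read 9.01, 9.23 and 9.37 in Col with IAA, and stayed at the floor on the 3 triple mutant IAA arrays, at least 11.8-fold lower. Probe set 258399_at read 7.51, 7.04 and 7.57 in Col control and 10.73, 10.71 and 10.95 with IAA, but 6.04, 6.40 and 6.40 and then 6.91, 7.29 and 7.16 in the triple mutant. It was lower in the mutant in either treatment, 2.13-fold in control and 12.7-fold with IAA. Probe set 260152_at, at the floor in both controls, read 7.58, 7.34 and 7.71 in Col with IAA and 5.72, 5.64 and 5.64 in the triple mutant. All 3 read far higher with IAA than with ethanol in Col. In the triple mutant 261766_at and 260152_at stayed at or near the floor, while 258399_at was higher with IAA on each array than on any control array, by 0.84 on the log2 scale against 3.42 in Col. The differences of the log2 responses were -3.56 (SE 0.17), -2.58 (SE 0.22) and -1.88 (SE 0.15), with limma adjusted p-values of 3.07e-10, 1.61e-06 and 1.5e-06. The annotation used here names no gene for them, and whether they read the mutated genes was not analysed here.

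The same probe sets in the other mutants place these values. In iaa17-6 with IAA, 261766_at read 9.60, 8.99 and 9.28, 258399_at read 10.68, 10.79 and 10.90, and 260152_at read 7.65, 7.56 and 8.15, each range beside that of Col. In axr3-1 with IAA, 261766_at read 7.08, 7.34 and 7.11 and 258399_at read 9.02, 8.89 and 9.02, between Col and the triple mutant, while 260152_at stood at the floor on all 3 arrays. The other pair of calls were low signals whose IAA arrays all lay at the floor. AT5G01015 read 6.32, 6.14 and 6.45 in Col control and the floor in the triple mutant, and AT5G60760 read 5.83, 5.99 and 5.95 against 6.50, 6.95 and 6.56. AT5G01015 was also at or near the floor in iaa17-6 control (5.80, 5.64 and 5.64) and axr3-1 control (5.64, 5.69 and 5.64). AT5G60760 read 5.70, 6.01 and 5.64 in iaa17-6 control and the floor in axr3-1. For AT5G01015 and AT5G60760 the differences of responses, 0.66 and -0.75, are thus differences between the control groups with floored IAA values.

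**Figure D3:**
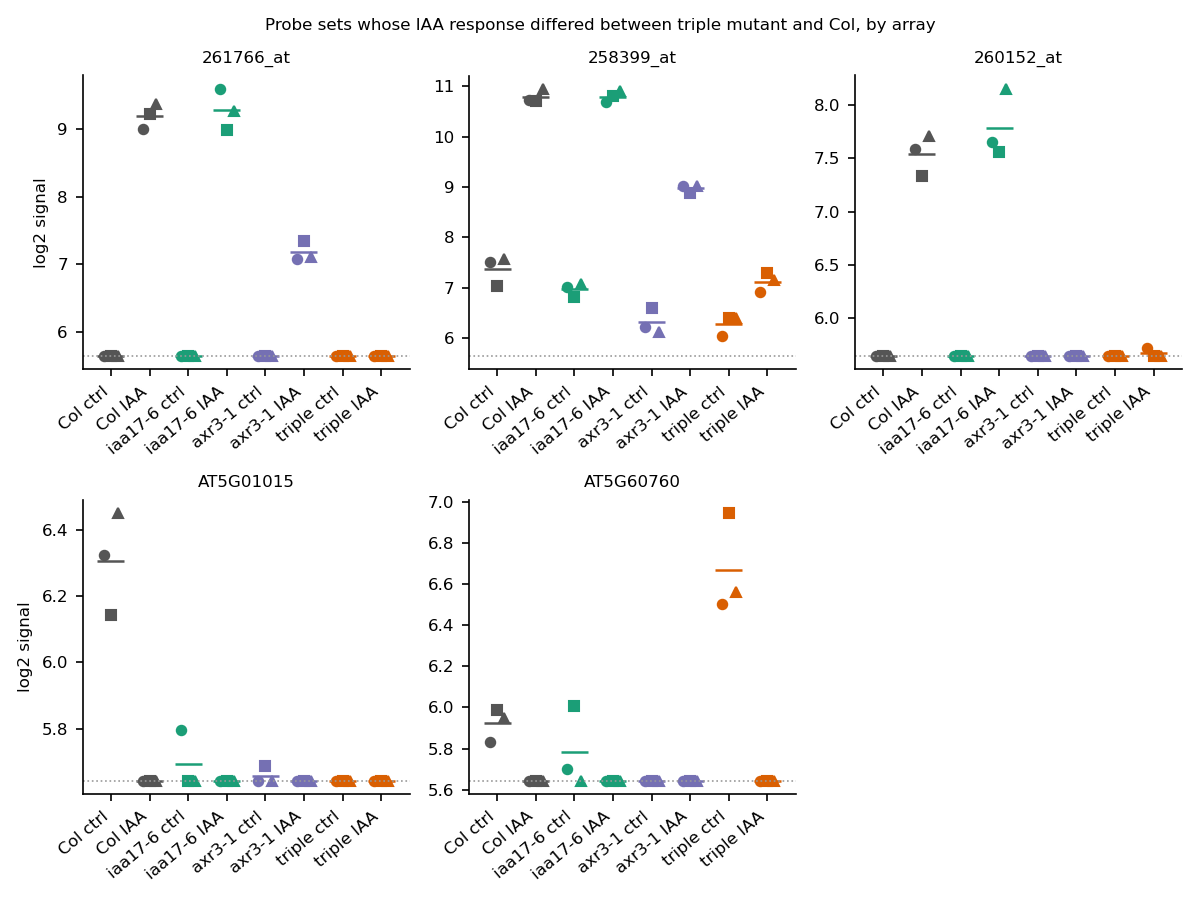
Log2 signal (vertical axis) on each of the 3 arrays of the 8 groups for the 5 probe sets whose IAA response differed between triple mutant and Col. Lines are group means and the dotted line is the floor at 5.64; with IAA the upper 3 lie high in Col (grey) and iaa17-6 (green) and at or near the floor, or at most at 7.29, in the triple mutant (orange).

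The 11 measured genes of the 3 auxin lists did not pass the test, which 0.648% of all probe sets tested passed as higher and 0.972% as lower in the triple mutant. Of 29 Aux/IAA genes listed 3 were measured, and 0 differed: IAA18 by 0.03 (95% interval -0.25 to 0.30), IAA29 by -0.11 (-0.24 to 0.02) and IAA30 by 0.33 (0.08 to 0.58, limma adjusted p = 0.2). Of 10 GH3 genes, whose enzymes conjugate auxin to amino acids, 4 were measured and 0 differed: GH3.1 by -0.03, GH3.3 by -0.18, WES1 by 0.08 and GH3.17 by 0.38 (0.07 to 0.68, limma adjusted p = 0.246). The intervals of GH3.1 (-0.62 to 0.55) and WES1 (-0.66 to 0.82) are wide. Of 8 auxin-linked transcription factor genes 4 were measured and 0 differed, the lateral root regulators LBD16 (0.07), LBD29 (0.28) and PUCHI (0.07) and the homeobox gene HAT2 (-0.20). Over these 3 lists the medians were 0.03, 0.02 and 0.07, against 0 over all probe sets tested. In the difference of IAA responses 0 of the 11 members passed, the largest being that of IAA30, 0.66 (95% interval 0.16 to 1.15, limma adjusted p = 1). IAA29, IAA30, GH3.1, LBD16, LBD29 and PUCHI lie at the floor in control in both genotypes, so that their mean differences understate those with IAA.

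Outside auxin signalling, the reserve mobilisation list had 3 of 13 members measured and 1 higher, ICL, against 0.648% higher over all probe sets tested. PPDK, pyruvate orthophosphate dikinase, read 6.60, 6.78 and 6.85 in Col control against 7.24, 7.16 and 6.92, and 7.37, 7.41 and 6.95 in Col with IAA against 7.81, 7.55 and 7.36. The control groups did not overlap, those with IAA did, and the mean difference was 0.34 (SE 0.11, limma adjusted p = 0.161). The lipase gene SDP1 differed by -0.11 (95% interval -0.33 to 0.10). Of 22 cell wall loosening genes 10 were measured and 1 was lower, XTH33, against 0.972% lower over all probe sets tested. The median of the list was 0.06, and 6 of the 10 lay above 0. The expansin gene EXPA8 had the largest difference of these, -0.95 (95% interval -1.47 to -0.43), and did not pass (limma adjusted p = 0.0607). The 4 measured root hair genes, of 14 listed, lay between -0.16 for EXPA18 and 0.12 for EXPA7 with 0 past the threshold. In axr3-1, whose fits against Col share the Col arrays, EXPA7 and EXPA18 were at the floor on all 6 arrays, and their differences from Col were -1.17 and -1.68 or beyond. The lists for root (PYK10), defence (PDF1.2, 0.54) and the clock (GI, 0.02) had 1 measured member each, and 0 passed. PDF1.2 was at the floor on 5 of the 6 Col arrays. SAG29 of the sugar starvation list stood at the floor on all 12 arrays compared, and DFR (flavonoid synthesis) and RR16 (cytokinin response) on 10 of the 12, so nothing is said of these lists. For another 7 lists the annotation names a probe set for 0 members, so nothing is said of them. Among these are auxin transport, auxin receptors and response factors, photosynthesis, heat shock and ethylene.

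**Figure D4:**
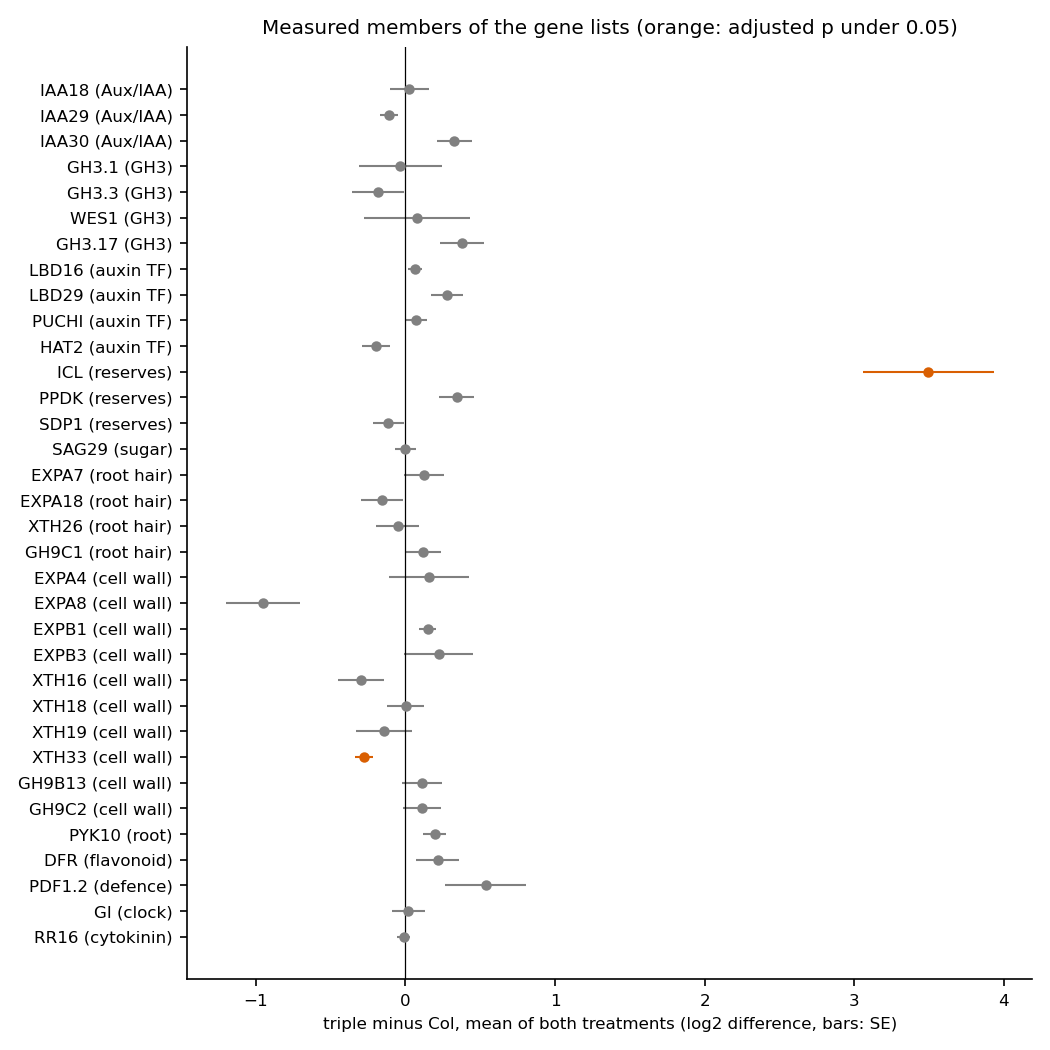
Log2 difference of the triple mutant from Col, mean of both treatments (horizontal axis, bars are SE), for the 34 measured members of the gene lists, with the list in brackets. Orange marks an adjusted p under 0.05, which 2 members reach, ICL at 3.50 and XTH33 at -0.28; SAG29 is at 0 because every array compared is at the floor, and the other members lie between -0.95 for EXPA8 and 0.54 for PDF1.2.

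Setting the triple mutant against iaa17-6 asks whether these differences also separate the 2 mutants. It uses the triple mutant arrays a second time but no Col array, so it is no separate evidence on the triple mutant. Of all probe sets 562 differed (3.96%), 197 higher (1.39%) and 365 lower (2.57%) in the triple mutant, and limma called 181 with the random block and 50 with pairs averaged. It called 242 and 310 without iaa17-6 control replicates 1 and 3, 296, 991 and 337 without iaa17-6 IAA replicates 1, 2 and 3, 270 and 296 without triple mutant control replicates 2 and 3, and 288 and 239 without triple mutant IAA replicates 2 and 3. ICL read 8.33, 9.01 and 7.79 in iaa17-6 control and 7.14, 7.58 and 8.41 with IAA, below every triple mutant array, and was 7.58-fold higher in the triple mutant (log2 2.92, SE 0.44, limma adjusted p = 0.00104). AT4G33560 (log2 1.34), AT4G24110 (log2 1.18), AT5G66985 (log2 1.14), AT3G27220 (log2 0.83) and AT1G26270 (log2 0.80) were also higher than in iaa17-6. AT2G33850 (log2 -1.10) and AT5G22580 (log2 -0.86) were lower, as was AT1G56220 (log2 -0.62).

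Other differences from Col were not matched by one from iaa17-6. AT3G03270 read 10.68, 11.11 and 10.86 in iaa17-6 control and 10.57, 11.06 and 11.20 with IAA, and its difference of 0.37 between the mutants (SE 0.16) had a limma adjusted p = 0.23. For AT5G57760 the difference was -0.46 (limma adjusted p = 0.153), for AT1G49200 -0.37 (limma adjusted p = 0.124), and for AT2G17850 1.48 (limma adjusted p = 0.0893). A p that misses the threshold does not show that the 2 mutants are alike in these. AT2G43530 was higher than Col in both, with 0.75 in the triple mutant and 0.98 in iaa17-6, and the mutants differed by -0.22.

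Several large differences between the mutants lay in loci where the iaa17-6 means also lay away from those of Col. The iaa17-6 and Col arrays of AT3G05950 overlapped with IAA, and those of OSM34 overlapped in control. AT2G04460 read 8.37, 8.25 and 7.99 in iaa17-6 control and 7.66, 7.80 and 8.28 with IAA, 5.90 to 6.40 on the 6 Col arrays, and the floor on all 6 triple mutant arrays. It was at least 5.34-fold lower in the triple mutant than in iaa17-6 (limma adjusted p = 4.97e-11), and its difference from Col was -0.47 or beyond (limma adjusted p = 0.0314). The call against Col was lost with the random block (limma adjusted p = 0.146) and without the 6 arrays that stand apart (limma adjusted p = 0.0787). It was also lost in 11 of the 12 fits that left out 1 array. AT3G05950 read 7.49 to 8.50 in iaa17-6 and 5.64 to 6.22 in the triple mutant, while its Col arrays spread from 5.64 to 7.49, with replicate 3 the lowest in either treatment. The unnamed probe set 263664_at was at the floor on all 6 iaa17-6 arrays and read 8.95 to 9.59 in the triple mutant, beside 8.75 to 9.50 in Col. The osmotin-like gene OSM34 (log2 -1.36) and the defensin gene PDF1.2 (log2 -1.06) were lower in the triple mutant than in iaa17-6, and their differences from Col, -0.46 and 0.54, did not pass (limma adjusted p = 0.382 and 0.425).

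**Figure D5:**
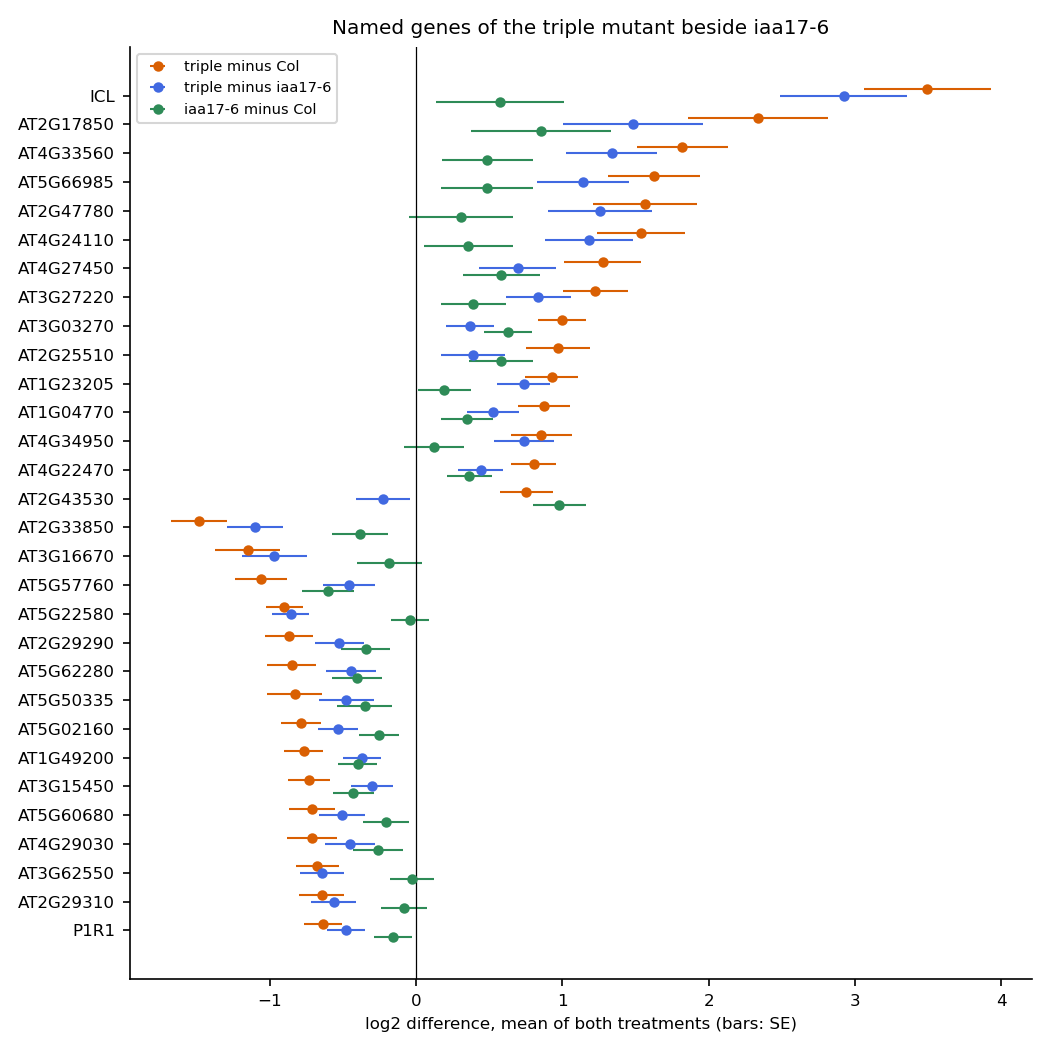
Log2 differences, mean of both treatments (horizontal axis, bars are SE), of the 15 largest rises and 15 largest falls of the triple mutant: triple mutant minus Col (orange), triple mutant minus iaa17-6 (blue) and iaa17-6 minus Col (green). The contrasts share arrays, so the points of a gene are not independent; for ICL they lie at 3.50, 2.92 and 0.57, and for AT2G43530 at 0.75, -0.22 and 0.98.

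Beside axr3-1, whose comparison with Col shares the Col arrays and called 2016 probe sets (14.2%), 7.77% higher and 6.43% lower, values of some leading genes were as follows. ICL read 9.27, 9.89 and 11.12 in axr3-1 control and 8.91, 9.23 and 9.93 with IAA, a log2 difference of 2.25 from Col where the triple mutant had 3.50. AT4G33560 differed by 1.28 where the triple mutant had 1.82, and PPDK by 1.63 where the triple mutant had 0.34. Of the 15 largest rises, 10 were also called higher in axr3-1 and 0 lower, where 7.77% of all probe sets were called higher. Of the 15 largest falls, 1 was called lower in axr3-1, AT5G57760, and 1 higher, AT3G62550. These counts rest on the same Col arrays by which the rises and falls were chosen. Among the 15 rises, 4 lay farther from Col in axr3-1 than in the triple mutant. These were AT4G24110 (log2 1.71 beside 1.54), AT2G25510 (log2 1.28 beside 0.97), AT1G04770 (log2 1.19 beside 0.87) and AT2G43530 (log2 0.81 beside 0.75), and the gaps between the 2 mutants were not tested. AT2G33850 differed by -0.38 and AT5G22580 by -0.28, both short of the threshold in axr3-1 (limma adjusted p = 0.25 and 0.193). For iaa17-6 against Col, with 181 probe sets called (1.28%), 0.979% higher and 0.296% lower, ICL differed by 0.57 (limma adjusted p = 0.563) and AT2G33850 by -0.38 (limma adjusted p = 0.339).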

How the data were processed

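The deposited values are log2 signals, 1 for each probe set on each array. That scale was read from the values themselves. How the authors summarized and normalized the arrays is not stated in the labels or files used. The lowest value on every array is 5.64, the log2 of 50. Between 44.5% and 46% of values on the 12 arrays lie at this floor, and array medians were 5.94 to 6.05. The 64 control probe sets and the 8554 at the floor on all 24 arrays were left out, leaving 14192. Of 22746 probe sets other than controls, 13513 name 1 gene, 503 several and 8730 none in the annotation used here; 13436 were matched by Entrez ID to a locus of TAIR10.1, and old symbols were replaced.

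All contrasts came from 1 limma fit of 8 group means (limma 3.58.1, R 4.3.3, eBayes with a trend, 16 residual degrees of freedom), two-sided, with Benjamini-Hochberg adjustment and a threshold of 0.05. The mean of the control and IAA differences is the genotype effect. Errors are SE of the fit. Precision is limited by the number of arrays, and the median SE over probe sets was 0.108. A difference against a group at the floor is a lower bound in size. The fit was also run on simulated data with independent noise on each array. That run does not bear on arrays that deviate together.

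Named genes are the 15 largest rises and 15 largest falls past the threshold with 1 named gene, up to 5 unnamed each way, up to 8 each way for other contrasts, ICL and PPDK, the auxin lists, and members of the other lists. A gene is represented by its brightest probe set. The 19 lists hold 209 distinct genes, 34 measured. The members, lists and this rule were chosen with earlier results of these data known.

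Same-numbered control and IAA arrays of the triple mutant deviated together (correlations across probe sets 0.84, 0.58 and 0.63). Those of Col gave -0.07, 0.32 and 0.50. Alternatives were a replicate block, only the groups compared, array weights, other filters and normalizations, and each array left out. A random block of same-numbered arrays within a genotype, means of these pairs, and leaving out or modelling the 6 arrays that stand apart were chosen after seeing the data.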

Additional observations from a re-analysis of the deposited data

Results flagged for a closer look

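The IAA response of 5 probe sets differed between the triple mutant and Col by the test of the difference itself. The differences of log2 responses, triple mutant minus Col, were -3.56 for 261766_at, -2.58 for 258399_at, -1.88 for 260152_at, -0.747 for AT5G60760 and 0.662 for AT5G01015. With the random block of same-numbered arrays the count was 6, and without single arrays it was 4 to 8.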

How the results depend on the processing

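Counts of probe sets past the threshold are given for the genotype difference over both treatments (230), in control (25), with IAA (21), for the difference of responses (5) and against iaa17-6 (562). With array weights, whose fit did not fully converge, they were 2302, 221, 1698, 20 and 2275. With only the groups compared, limma called 0 in control (813 at an unadjusted p under 0.05), 5 with IAA and 263 against iaa17-6. With no filter the counts were 123 over both treatments, 13 in control and 348 against iaa17-6, more probe sets being tested. Restricted to probe sets measured above the floor on every array compared, 1 was called with IAA and 1 for the difference of responses. Same-numbered arrays of Col and the triple mutant share only a number: their deviations correlated at -0.39, 0.57 and -0.49 in control and -0.21, 0.08 and -0.12 with IAA. With the number as a replicate block the counts were 327 over both treatments, 53 in control, 32 with IAA and 878 against iaa17-6. Chosen after seeing the data, the random replicate block gave 55 over both treatments and 181 against iaa17-6, the replicate block by pair means 12 and 50, and the 6 arrays that stand apart as a term 460 and 1388; without these 6 arrays the counts were 73 over both treatments and 11 in control. Leaving out 1 array gave 55 to 318, 2 to 85, 6 to 25, 4 to 8 (8 without triple mutant IAA replicate 1) and 239 to 991. The cause of these shifts was not tested. Of 63 named calls over both treatments, 2 held under every alternative that gave them a value, 258399_at and 250868_at, while 60 were lost with pair means, 54 without the 6 arrays, 38 with the random block and 14 with only the groups compared; of 164 named results, 0 changed direction. Low signal limits the floored probe sets, whose differences are bounds.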

Other observations

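Among probe sets that the annotation leaves unnamed, 250868_at had the largest rise. It read 5.64, 6.21 and 5.64 in Col control and 8.81, 8.87 and 7.80 in the triple mutant control, and with IAA 5.64, 6.52 and 5.64 in Col and 8.24, 8.51 and 8.06 in the triple mutant. It was 5.64-fold higher over both treatments (log2 2.50, SE 0.28, limma adjusted p = 0.000121), with 4 of the 6 Col arrays at the floor. In axr3-1 it read 7.79, 8.24 and 9.16 in control and 7.10, 7.82 and 7.62 with IAA, and in iaa17-6 6.12, 7.22 and 5.64 and then 5.64, 5.83 and 6.27. 260869_at followed with a log2 difference of 1.76, and its groups overlapped with IAA but not in control. Of the unnamed probe sets lower in the triple mutant, 260221_at (log2 -1.29), 260287_at (log2 -1.07) and 259751_at (log2 -1.01) came after 258399_at (log2 -2.38) and 261766_at (log2 -1.78 or beyond).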
